A study of Mus musculus with 48 samples.

Results

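The genes described here are 40 genes of the cell cycle and mitosis in mouse bone cells and mouse bone. They were taken from a list of gene symbols, and each symbol matched 1 of the 55335 gene rows in every expression table. By role they fall into 9 groups: 10 genes act in the G1/S transition or DNA replication and 30 in mitosis. RNA sequencing values were at hand for 27 libraries in 9 groups of 3. The study profiled how osteocytes, the cells embedded in bone matrix, change with age, stress and mitochondrial damage. The other 21 of the series' 48 samples were not analysed here.

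Of the 27 libraries, 18 came from MLO-Y4, a mouse osteocyte-like cell line. It is an immortalised line, derived from a mouse carrying the simian virus large T antigen under the osteocalcin promoter, and it divides in culture. In the oligomycin A experiment, cells received 50 µM oligomycin A, an inhibitor of the mitochondrial ATP synthase, for 1 h. Their controls, called vehicle, received the solvent DMSO. The labels of the vehicle samples name oligomycin A together with DMSO, while the protocol gives DMSO alone. Supernatants of both cultures were put on untreated MLO-Y4 cells for 2 h, which gave the vehicle supernatant and oligomycin A supernatant groups, or recipients. In the ADP experiment, cells received 2 µM ADP for 2 h or no ADP. The bone libraries came from wild-type C57BL/6J mice. Old cortical bone was untreated femur and tibia of mice aged 18 months. Its protocol mentions non-osseous tissue and marrow at harvest, and there is no second group in its table, so it enters no test. Young bone was cultured fragments from mice aged 1 month, kept for 48 h in medium from other bone fragments: one group is labelled medium transfer and one control. Whether that medium came from young or old fragments is not given for either of these 2 groups. Nothing in the labels ties the 3 libraries of a group to separate animals or culture dishes. The p-values below therefore rest on the spread among those 3, which may be technical.

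A dividing cell copies its DNA in S phase and parts the copies in mitosis. Cyclins E1 and E2 (Ccne1, Ccne2) and the transcription factor E2F1 open S phase, MCM proteins form the replicative helicase, and ribonucleotide reductase (Rrm1, Rrm2) makes DNA building blocks. Cyclins A and B with the kinase CDK1 drive entry into mitosis, where kinetochores tie chromosomes to spindle microtubules and a checkpoint holds the anaphase-promoting complex until all are attached. Transcripts of many mitosis genes peak in G2 and M phase, so their level in bulk RNA is widely used as a sign of dividing cells. Osteocytes in bone are held to be out of the cell cycle, whereas marrow precursors of red cells and granulocytes divide.

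All values are FPKM, fragment counts scaled by transcript length and by library size, as the authors deposited them. The depth of the libraries is taken as unknown, since the values did not resolve into whole fragments. One library stood apart in the oligomycin A experiment: vehicle replicate 2 had 26.5% of its summed FPKM in ribosomal RNA-like genes, against 0.206% to 0.409% in the other 11. In young bone, satellite-like repeat genes took 81.7% to 88.6% of the summed FPKM in the controls and 66.1%, 5.80% and 89.9% in the 3 medium transfer libraries. In old bone, globin genes took 43.6% to 45.3%, and all 13 erythroid and all 12 granulocyte markers in the tables were at or above 1 FPKM in each library. The osteocyte marker Sost was listed at 0 in all 18 MLO-Y4 libraries, and Dmp1, Mepe and Fgf23 stayed at or near 0, while the early osteocyte marker Pdpn lay between 150.7 and 290.0 FPKM. Of the 8 osteocyte markers, Gja1 and Phex were also above 1 FPKM in every MLO-Y4 library. Their group means were 28.2 to 38.9 and 7.49 to 12.1 FPKM.

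All 40 genes had a value above 0 in every library. In MLO-Y4 none fell below 1 FPKM, and they made up 0.320% to 0.549% of the summed FPKM. Mean levels over the 18 libraries ran from 6.17 to 116.6 FPKM, with a median of 21.8. In old bone the 40 means ran from 1.93 to 120.8 FPKM (median 11), and the genes made up 0.117% to 0.129% of the sum. In young bone they ran from 0.230 to 13.1 FPKM (median 1.24), with 0.00343% to 0.0304% of the sum. Such shares depend on what else fills the sum. With satellite-like, ribosomal RNA-like and 7S genes left out of it, the young bone shares became 0.0345% to 0.0429%. Old bone libraries then had 0.125% to 0.134%, and MLO-Y4 libraries 0.389% to 0.551%. In each young bone library 7 to 29 of the 40 were below 1 FPKM. A value above 0 there is weak evidence of expression. In pairs of young bone libraries, 39366 to 43563 gene rows were above 0 in at least 1 of the 2. The range was 23469 to 24552 in pairs of MLO-Y4 libraries within a table. The tables were normalised separately, so levels are set side by side across them without a test. In bulk RNA, fewer cells of a type and less RNA per cell cannot be told apart.

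**Figure D1:**
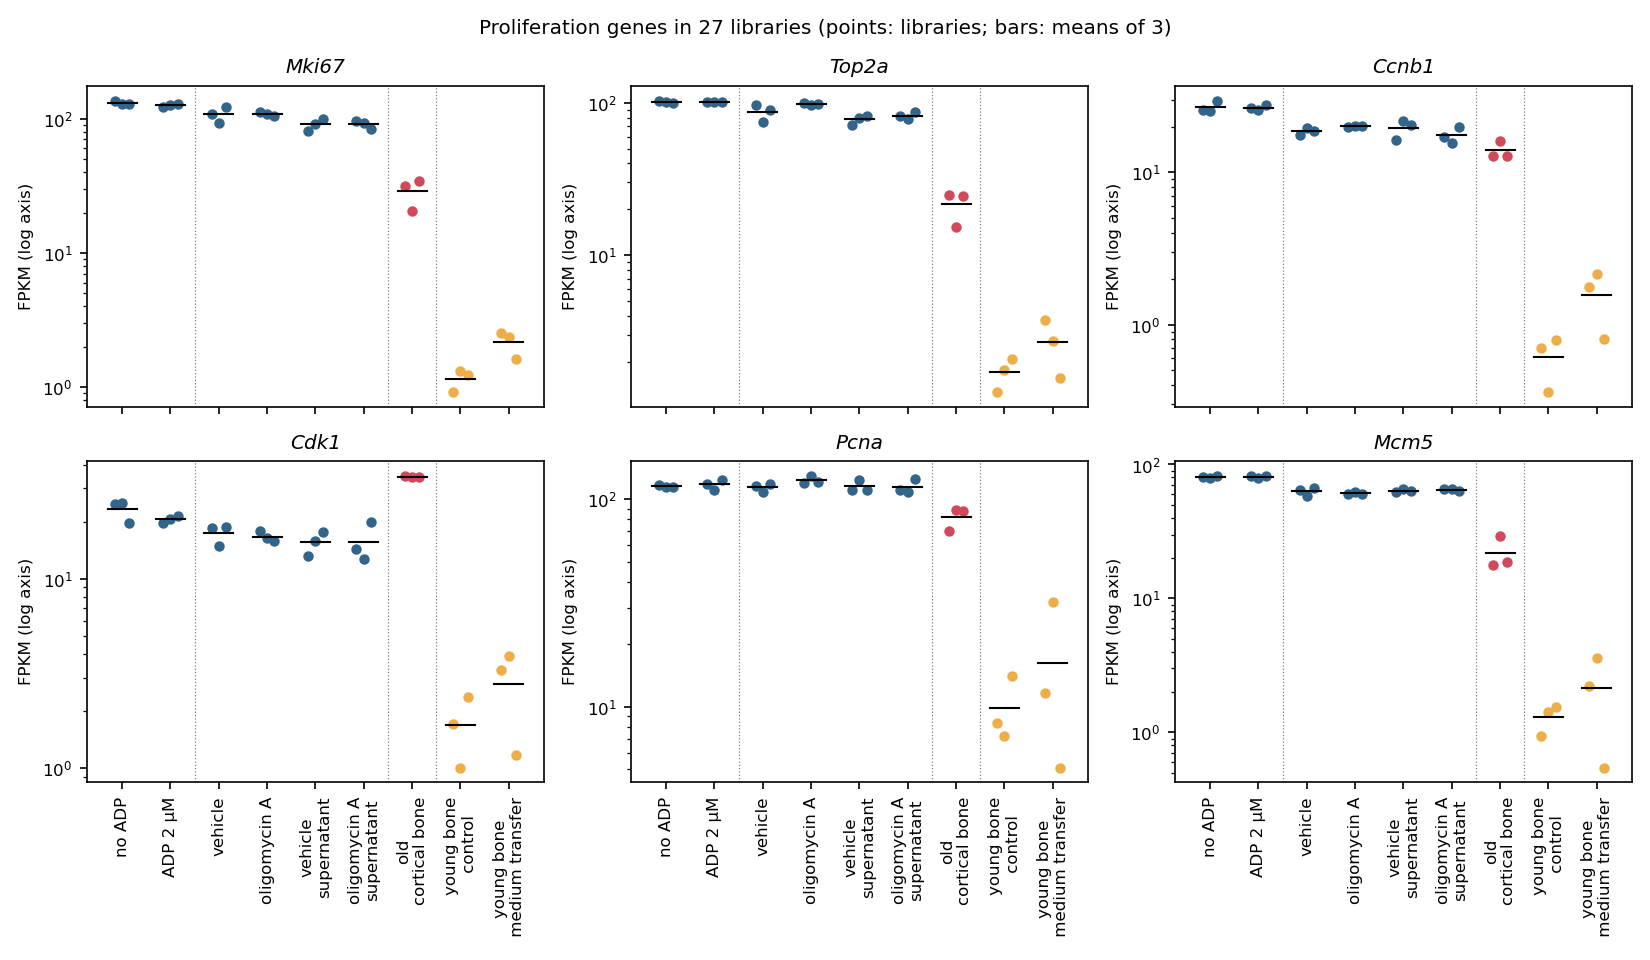
FPKM of 6 proliferation genes in 27 libraries (log axis; points are libraries, bars the means of 3; dotted lines part the 4 tables). MLO-Y4 libraries lie close together within a group, while Mki67 spans 80.4 to 136.2 FPKM there, against 20.4 to 34.1 for old and 0.917 to 2.56 for young bone.

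Mki67, which encodes the proliferation antigen Ki-67, was at 131.5 ± 4.14 FPKM (SD, n = 3, as for all group means below) without ADP, 125.7 ± 3.95 with 2 µM ADP, 107.8 ± 14.4 in vehicle and 108.4 ± 3.27 in oligomycin A cells. In the recipients it was at 90.6 ± 9.56 after vehicle supernatant and 90.7 ± 6.34 after oligomycin A supernatant. Old bone had 28.7 ± 7.27 FPKM, young bone control 1.16 ± 0.213 and young bone medium transfer 2.18 ± 0.50. Top2a, the DNA topoisomerase that untangles sister chromatids, showed the same order of tables, with group means of 77.9 to 101.6 FPKM in MLO-Y4, 21.5 in old bone, and 1.70 and 2.68 in young bone.

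Among S phase genes, Pcna, the sliding clamp of DNA polymerase, had the highest mean of all 40 in MLO-Y4, 116.6 FPKM, and the highest in young bone, 13.1 FPKM. Its group means in MLO-Y4 stayed between 113.9 and 123.2 FPKM, and old bone had 82.4 ± 10.6. The tables also list a Pcna pseudogene, Pcna-ps2, at 13.3 FPKM in old bone and 16.7 to 21.3 in the MLO-Y4 groups, and reads shared by the 2 copies make the Pcna level uncertain. Mcm5 was the highest helicase subunit in MLO-Y4, with a mean of 69.0 FPKM over 18 libraries, and Mcm2 the lowest at 52.7. In old bone Mcm5 was at 21.8 ± 6.32 FPKM, and in young bone at 1.30 ± 0.318 (control) and 2.13 ± 1.54 (medium transfer). Rrm2, the cell cycle-regulated subunit of ribonucleotide reductase, averaged 99.6 FPKM in MLO-Y4 and its partner Rrm1 26.3. Of the G1/S regulators E2f1 was the highest in MLO-Y4 at 27.2 FPKM, and Ccne2 the lowest at 12.3.

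Among mitosis genes, Ccna2 was the highest cyclin in MLO-Y4 at 54.0 FPKM, and Aurka, which encodes the spindle pole kinase Aurora A, the lowest of the cyclin and kinase group at 18.1. Cdk1, the kinase that drives mitotic entry, averaged 18.2 FPKM in MLO-Y4 and had 34.6 ± 0.305 FPKM in old bone, with the 3 libraries at 34.9, 34.5 and 34.3. It had 1.70 ± 0.681 and 2.78 ± 1.43 in the young bone groups. Ccnb1, cyclin B1, had group means of 17.5 to 26.9 FPKM in MLO-Y4, 13.9 in old bone, and 0.615 and 1.57 in young bone. In the checkpoint group Cdc20, an activator of the anaphase-promoting complex, was the highest in MLO-Y4 at 41.0 FPKM and the kinase gene Ttk the lowest at 8.13. In the kinetochore and passenger group Cenpe, a kinetochore motor, was the highest at 27.1 and Ndc80 the lowest at 6.17, which was also the lowest of all 40. Among the spindle proteins Tpx2 was highest (31.0 FPKM) and Kif2c lowest (9.79), and in the cytokinesis group Anln was highest (35.0) and Kif23 lowest (6.57).

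The order of the 40 genes differed between MLO-Y4 and old bone. Ranked by mean FPKM from the highest, Ccnb2 (cyclin B2) was 11th in MLO-Y4 and 1st in old bone, Ube2c (the ubiquitin-conjugating enzyme of the anaphase-promoting complex) 18th and 2nd, and Birc5 (survivin) 17th and 3rd. Cenpa, the centromeric histone, was 38th and 16th. In the other direction Anln moved from 12th to 37th, Top2a from 4th to 15th and Mki67 from 2nd to 10th. Spearman's rho over the 40 means was 0.600 between MLO-Y4 and old bone, 0.682 between MLO-Y4 and young bone and 0.824 between old and young bone. These are descriptions across genes, which are not independent, and the genes of 1 set of libraries share its depth and composition.

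Ratios of 2 genes within a library do not depend on how that library was scaled. They can still depend on RNA quality and on read coverage along transcripts, which may differ between the tables. The part of these in the ratios and in the order of the genes was not tested. The pairs were picked after the levels were seen and are given with no test. The ratio of Ccnb2 to Ccnb1 was 1.31 to 2.18 in MLO-Y4, whereas old bone gave 7.73 to 9.83 and young bone 2.19 to 5.55. Ube2c to Mki67 was 0.206 to 0.305 in MLO-Y4, against 3.29 to 6.09 for old and 1.61 to 4.04 for young bone. Birc5 to Mki67 behaved alike, with 0.208 to 0.293, 2.6 to 4.73 and 1.41 to 3.61. For these 3 ratios no bone library overlapped an MLO-Y4 library, although the lowest young bone value of Ccnb2 to Ccnb1, 2.19, nearly met the highest MLO-Y4 value, 2.18. Old bone also carried the summed erythroid markers at 356910 to 379440 FPKM and the granulocyte markers at 99535 to 105580. In MLO-Y4 these sums were 1.42 to 3.96 and 3.78 to 9.32 FPKM. The erythroid list holds the globin genes. The granulocyte list holds precursor genes such as Mpo and Elane and genes of later cells such as S100a8, S100a9 and Ltf. Neither sum is therefore a measure of dividing precursors. The part of these markers in the different order was not tested. The ratio of Ccna2 to Cdk1 lay the other way, at 2.44 to 3.67 in MLO-Y4, against 1.54 to 1.92 for old and 0.577 to 1.09 for young bone.

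**Figure D2:**
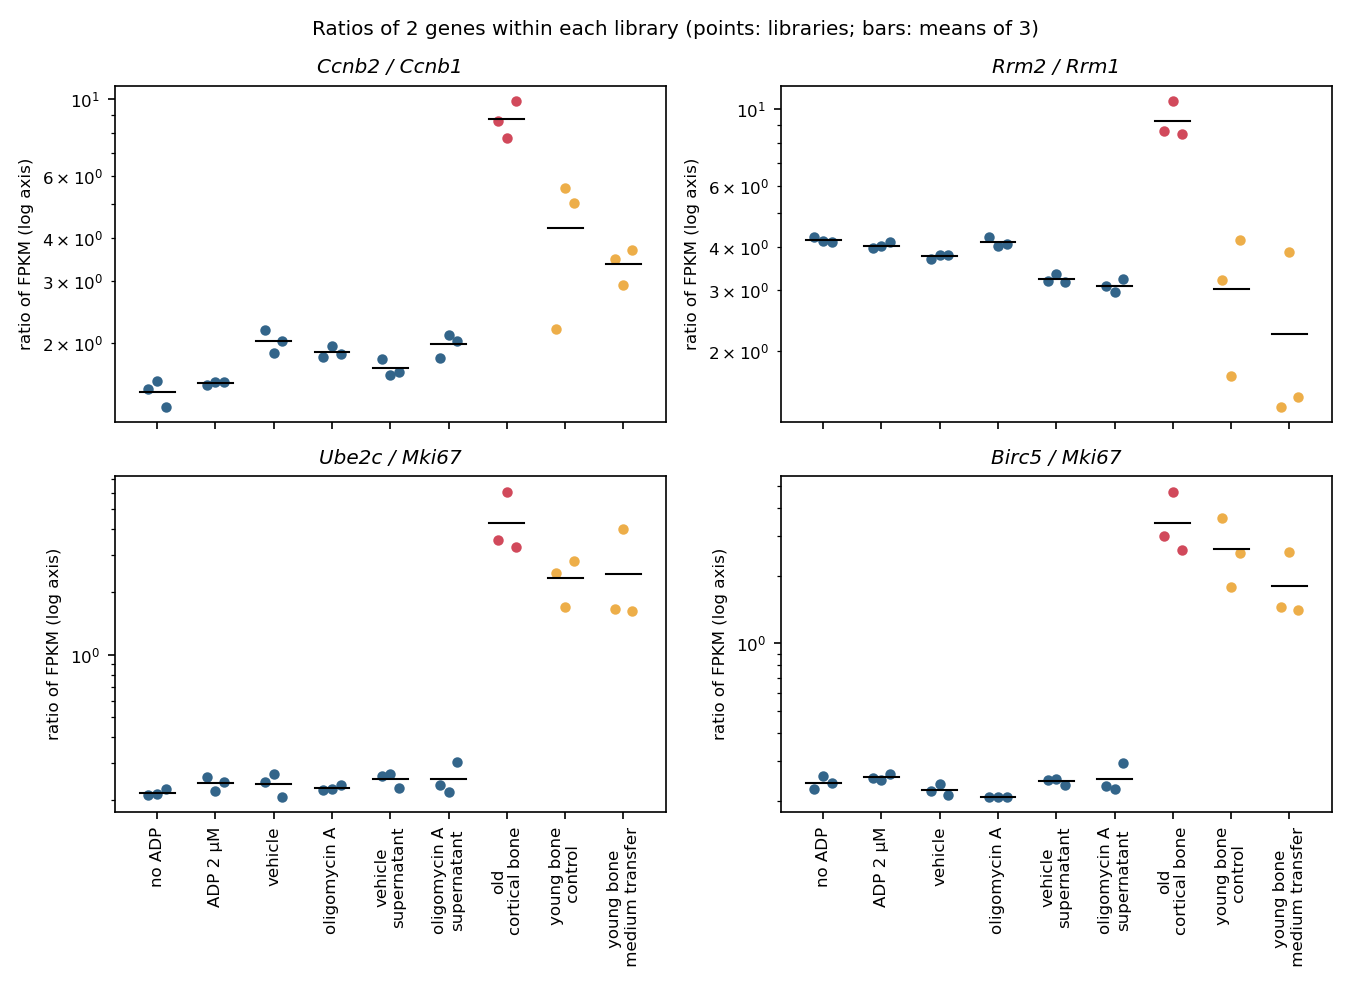
Ratio of the FPKM of 2 genes within each library (log axis; points are libraries, bars the means of 3 libraries). Old bone libraries lie above all MLO-Y4 libraries in the 4 ratios, and for Rrm2 to Rrm1 young bone spreads from 1.38 to 4.18 around the MLO-Y4 values of 2.97 to 4.26.

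Direct treatment with oligomycin A for 1 h asks what the loss of mitochondrial ATP synthesis does to these transcripts. Of the 40 genes, 3 rose against vehicle and none fell: Ndc80, a microtubule-binding subunit of the outer kinetochore, Kif11, the motor that pushes spindle poles apart, and Ttk, the kinase (also called MPS1) that starts the spindle checkpoint. Across all 11902 genes tested, 3.71% rose and 1.63% fell by the same test, limma on log2(FPKM + 1) with Benjamini-Hochberg adjusted p below 0.05. The 3 genes are 7.50% of the 40. Without vehicle replicate 2 the calls over all genes turned to 286 higher and 366 lower, against 442 and 194 with it. The median difference of the 40 was 0.05 on the log2(FPKM + 1) scale, against 0.00 for all genes, and 26 differences were positive and 14 negative. At an unadjusted p below 0.05 there were 10 of the 40 (25.0%), near the 22.2% of all genes.

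Ndc80 was at 5.43, 5.24 and 5.68 FPKM in the vehicle libraries and at 7.17, 6.93 and 7.57 in the oligomycin A libraries. The groups did not overlap, and the difference on the log2(FPKM + 1) scale was 0.35 (SE 0.075, limma adjusted p = 0.0234). Kif11 was at 14.6, 12.5 and 14.1 FPKM in vehicle and at 17.4, 16.6 and 17.7 in oligomycin A cells, again without overlap. Its difference was 0.31 (SE 0.069, limma adjusted p = 0.0284). Ttk was at 6.48, 6.32 and 7.24 FPKM against 8.55, 8.04 and 8.57. All 3 treated libraries were above all 3 vehicle libraries, and the difference was 0.29 (SE 0.074, limma adjusted p = 0.0456).

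These calls were near the threshold. Without vehicle replicate 2, the library rich in ribosomal RNA-like genes, none of the 3 passed: Ndc80 had a difference of 0.33 (limma adjusted p = 0.0522), Kif11 0.25 (0.0545) and Ttk 0.26 (0.0944). Ccne2 then fell by 0.39 (limma adjusted p = 0.0432), against -0.30 and 0.0916 with all libraries. None of the 40 was called without oligomycin A replicate 1, 2 or 3, 1 (Kif11) without vehicle replicate 1, and 2 (Ndc80 and Ttk) without vehicle replicate 3. When the tables were rescaled by median ratios, by quantiles, or to one total without satellite-like, ribosomal RNA-like and 7S genes, 5 of the 40 were called each time: Ndc80, Kif11, Ttk and Tpx2 higher and Ccne2 lower. Rescaling to one total with those genes kept, and a fit of only the 2 groups, each called Ndc80 alone, and no gene of the 40 was called without a filter on low values.

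**Figure D3:**
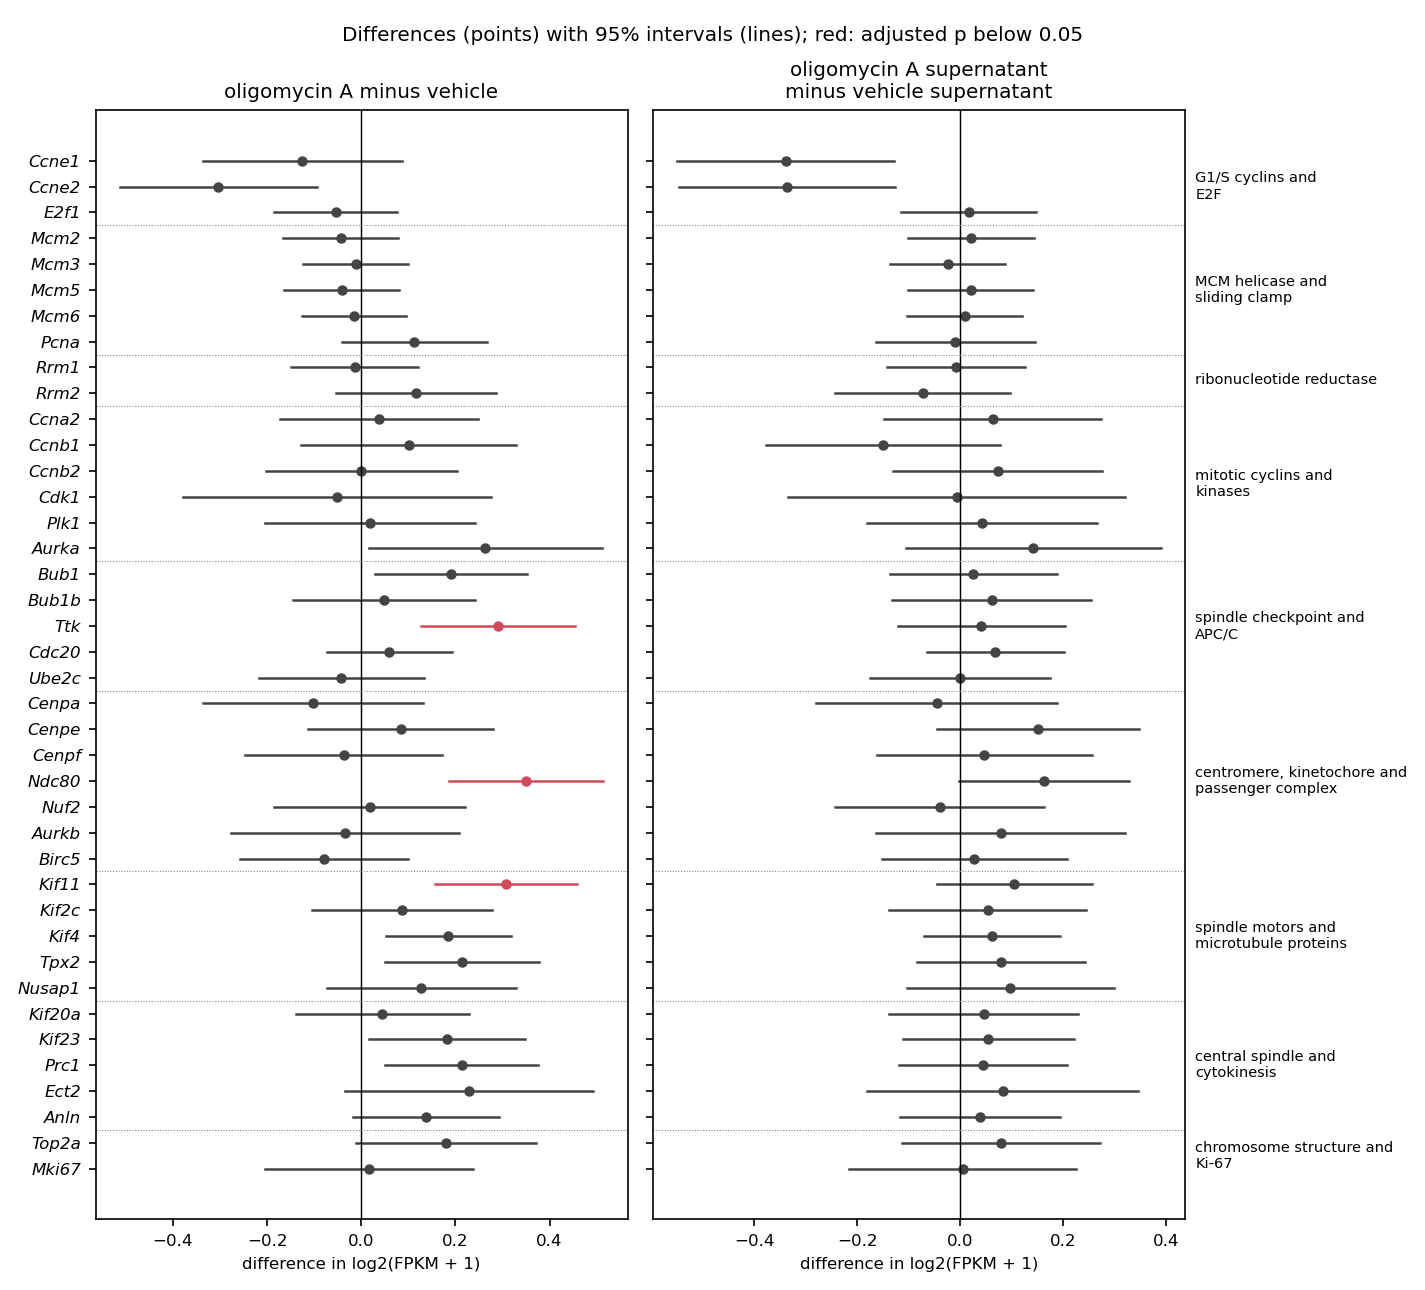
Difference in log2(FPKM + 1) of each of the 40 genes, with 95% confidence intervals, for oligomycin A minus vehicle (left) and oligomycin A supernatant minus vehicle supernatant (right), in role order. Red marks an adjusted p below 0.05: Ndc80, Kif11 and Ttk on the left and none on the right.

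By role, the 5 spindle motor and microtubule genes all had positive differences, with a median of 0.19, and so did the 5 cytokinesis genes, with a median of 0.18. Next to the called Kif11 stood the chromokinesin Kif4, at 13.3 ± 0.647 FPKM in vehicle and 15.2 ± 0.421 in oligomycin A cells (limma adjusted p = 0.101). Tpx2, which activates Aurora A on the spindle, was at 27.2 ± 2.98 and 31.6 ± 0.751 FPKM (limma adjusted p = 0.119). Prc1, which bundles microtubules of the central spindle, was at 12.5 ± 0.259 and 14.7 ± 0.598 (limma adjusted p = 0.119). The 2 groups of libraries did not overlap for 14 of the 40 genes with the treated group higher and for 2 with it lower, which is 35.0% and 5.00%. Over all genes these shares were 16.8% and 13.1%. The 14 were 4 spindle motor and microtubule genes, 3 cytokinesis genes, 2 of the mitotic cyclin and kinase group, 2 checkpoint genes, Ndc80, Pcna and Rrm2.

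None of the 3 G1/S genes was called. Ccne2, which encodes cyclin E2, was at 11.3, 9.49 and 11.7 FPKM in vehicle and at 8.42, 8.75 and 8.46 in oligomycin A cells. The groups did not overlap, and the difference was -0.30 (SE 0.095, limma adjusted p = 0.0916), which missed the threshold. Ccne1 was at 12.5 ± 0.440 and 11.4 ± 0.323 FPKM, also without overlap, with a difference of -0.13 (limma adjusted p = 0.482). E2f1 was at 27.9 ± 1.89 and 26.8 ± 1.24 FPKM with overlapping groups, a difference of -0.05 (95% interval -0.19 to 0.08). The MCM genes had differences between -0.04 and -0.01, with Mcm5 at 63.0 ± 4.50 FPKM in vehicle and 61.0 ± 1.15 in oligomycin A cells. Mki67 (0.02), Ccnb1 (0.10), Cdk1 (-0.05), Top2a (0.18) and Pcna (0.11) were not called.

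The promoters of the called genes are shown to let the called genes be read against a known feature of the class: many mitosis genes carry a cell cycle homology region (CHR) and CCAAT boxes near their start, through which DREAM, MuvB and NF-Y complexes act. Each run is 300 bases, from 250 before to 50 after the gene's start, 5′ to 3′ in the gene's direction, from RefSeq on build GRCm38.p6. Capitals mark TTTGAA (the CHR letters), TTTAAA (a CHR-like form) and CCAAT on either strand, so that TTCAAA and ATTGG are reverse-strand matches. Ccnb2 and Cenpf are added for their results in old bone and in the vehicle comparison.
Ndc80, chr17:71526808-71527107, minus strand: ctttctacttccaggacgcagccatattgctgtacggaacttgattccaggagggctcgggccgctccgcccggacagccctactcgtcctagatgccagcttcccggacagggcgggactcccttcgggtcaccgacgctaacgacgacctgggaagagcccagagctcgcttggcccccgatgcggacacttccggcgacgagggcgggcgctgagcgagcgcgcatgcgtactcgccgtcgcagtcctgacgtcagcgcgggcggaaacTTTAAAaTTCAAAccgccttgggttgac
Kif11, chr19:37376132-37376431, plus strand: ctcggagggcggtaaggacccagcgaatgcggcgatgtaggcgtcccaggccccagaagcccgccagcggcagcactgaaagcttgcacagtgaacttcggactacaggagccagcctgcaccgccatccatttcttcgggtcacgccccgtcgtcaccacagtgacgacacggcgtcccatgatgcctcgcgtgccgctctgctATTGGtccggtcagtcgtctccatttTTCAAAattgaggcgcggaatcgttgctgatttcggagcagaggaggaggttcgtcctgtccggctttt
Ttk, chr9:83834439-83834738, plus strand: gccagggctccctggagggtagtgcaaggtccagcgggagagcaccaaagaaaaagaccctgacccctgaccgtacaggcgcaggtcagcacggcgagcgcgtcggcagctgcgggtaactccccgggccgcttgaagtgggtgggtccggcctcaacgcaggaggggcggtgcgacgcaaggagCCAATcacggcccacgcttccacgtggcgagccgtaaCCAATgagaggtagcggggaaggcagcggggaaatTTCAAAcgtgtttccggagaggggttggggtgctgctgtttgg
Cenpf, chr1:189688037-189688336, minus strand: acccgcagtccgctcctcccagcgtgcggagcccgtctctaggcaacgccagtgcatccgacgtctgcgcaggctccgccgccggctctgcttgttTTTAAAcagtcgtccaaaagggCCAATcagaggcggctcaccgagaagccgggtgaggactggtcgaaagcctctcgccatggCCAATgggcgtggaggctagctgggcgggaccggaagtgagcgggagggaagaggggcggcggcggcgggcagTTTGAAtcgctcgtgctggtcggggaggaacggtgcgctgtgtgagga
Ccnb2, chr9:70421505-70421804, minus strand: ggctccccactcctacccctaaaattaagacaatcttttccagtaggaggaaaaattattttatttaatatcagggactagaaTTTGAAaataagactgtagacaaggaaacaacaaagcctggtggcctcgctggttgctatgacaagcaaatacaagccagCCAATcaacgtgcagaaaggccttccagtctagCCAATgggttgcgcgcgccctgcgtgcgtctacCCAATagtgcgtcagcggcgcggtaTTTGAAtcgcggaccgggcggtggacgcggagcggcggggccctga
TTTGAA was found in all 5 windows shown, with a match within 35 bases of the start in Ndc80, Kif11, Ttk, Cenpf and Ccnb2. CCAAT was found in 4 of the 5, and Ndc80 had none. The windows shown were picked after the values were seen, so these shares do not describe the class. Mki67 and Ccne1, which are not shown, differed. Mki67 had CCAAT, but TTTGAA only at -116 and -98 bases from the start. Ccne1 had neither TTTGAA nor CCAAT, and had TTTAAA at -15.

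RefSeq promoter entries matched 35 of the 40 genes. TTTGAA was in 21 of the 35 (60.0%), against 17.9% of all 32851 promoter windows of the same length. The 35 were counted by gene, with a match in any window of the gene, and the 32851 by window. The shares are therefore not in strictly like units. CCAAT was in 27 (77.1%), against 37.4%, and both were in 18 (51.4%), against 6.95%. TTTAAA was in 12 (34.3%), against 13.2%. The E2F letters TTTCCCGC, TTTCGCGC, TTTGCCGC and TTTGGCGC were in 4 (11.4%), namely Cdk1, Mcm3, Mcm5 and Mcm6, against 2.26%. Genes that were not called in any comparison, such as Plk1, Cdc20 and Ube2c, also carried both TTTGAA and CCAAT. A match describes letters in a window, not a bound site.

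Of 172 other cell cycle genes listed by function, 170 were tested, and 9 rose (5.29%) and 2 fell (1.18%) in oligomycin A cells, near the 3.71% and 1.63% of all genes. Of 26 genes listed as G1 cyclins, kinases and pocket proteins, a list that also holds Myc and Cdc25a, 2 rose and 2 fell. The largest difference was that of the growth regulator Myc, at 49.8 ± 0.614 FPKM in vehicle and 127.2 ± 3.68 in oligomycin A cells (difference 1.33, limma adjusted p = 5.7e-05). Cdc25a, the phosphatase that activates CDK2, fell from 4.65 ± 0.643 to 3.39 ± 0.107 (difference -0.36, limma adjusted p = 0.0267). Of the 87 other mitosis genes tested 5 rose and none fell, led by Sgo1, the shugoshin that guards centromeric cohesion, at 8.88 ± 0.825 and 14.0 ± 0.494 FPKM (difference 0.61, limma adjusted p = 0.00222). Of 50 other replication genes 1 rose, Slbp, which binds histone mRNA stem-loops (difference 0.42, limma adjusted p = 0.00945).

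Of the CDK inhibitors 1 of 7 tested rose in oligomycin A cells. Cdkn1b, which encodes p27, was at 8.96, 7.05 and 8.64 FPKM in vehicle and at 11.7, 10.9 and 12.6 in oligomycin A cells, a difference of 0.47 (limma adjusted p = 0.0114). Cdkn1a, which encodes p21, was at 57.5 ± 4.68 and 73.9 ± 1.14 FPKM (difference 0.36, limma adjusted p = 0.0728). Cdkn2a, the locus of p16 and p19ARF, was at 106.1 ± 6.09 and 93.1 ± 2.42 FPKM (difference -0.18, limma adjusted p = 0.190), and Ccnd1, cyclin D1, at 28.6 ± 0.903 and 26.4 ± 1.28 (difference -0.11, limma adjusted p = 0.310).

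Cells given the supernatant of oligomycin A cultures were compared with cells given vehicle supernatant, to see whether the conditioned medium carried an effect over. None of the 40 was called, while 0.386% of all genes were. At an unadjusted p below 0.05 there were 2 of the 40 (5.00%), the 2 cyclin E genes, against 8.08% of all genes. Ccne1 was at 11.5, 13.1 and 14.1 FPKM after vehicle supernatant and at 9.17, 9.06 and 11.9 after oligomycin A supernatant, a difference of -0.34 (SE 0.096, limma adjusted p = 0.258) with overlapping groups. Ccne2 was at 11, 13.6 and 12.8 FPKM against 8.96, 9.17 and 10.8. It did not overlap, and its difference was -0.34 (SE 0.095, limma adjusted p = 0.258). Without oligomycin A supernatant replicate 3, Ccne1 was called, with a fall by 0.46 (limma adjusted p = 0.0447).

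The next smallest p-values in the recipients belonged to Ndc80 (5.15 ± 0.529 and 5.88 ± 0.476 FPKM, difference 0.16), Cenpe (21.8 ± 2.03 and 24.2 ± 1.23, difference 0.15) and Kif11 (14.1 ± 0.806 and 15.2 ± 0.898, difference 0.11), with limma adjusted p of 0.632 to 0.810. Ttk was at 6.71 ± 0.182 and 6.96 ± 0.793 FPKM. The median over the 40 was 0.04, against 0.00 for all genes, and 29 differences were positive. Groups did not overlap for 1 of the 40 with the oligomycin A supernatant lower, Ccne2, and for none with it higher, against 6.49% and 6.65% of all genes. Among the other cell cycle genes 1 was called: Myc rose from 28.9 ± 5.97 to 45.4 ± 4.83 FPKM (difference 0.65, limma adjusted p = 0.0460). Cdkn1b was at 7.66 ± 0.350 and 9.28 ± 0.648 FPKM (limma adjusted p = 0.418), Cdkn1a at 51.7 ± 8.6 and 60.2 ± 4.88 (0.632), Cdkn2a at 107.3 ± 6.75 and 106.5 ± 11.4 (0.990) and Ccnd1 at 25.7 ± 1.65 and 23.2 ± 1.22 (0.597).

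Whether recipients and treated cells differed in their response was tested as an interaction in the same limma fit. None of the 40 was called, against 0.445% of all genes, and 1 (2.50%) had an unadjusted p below 0.05, against 10.7% of all genes. That gene was Ttk, whose response was smaller in recipients by 0.25 (95% interval -0.48 to -0.02, limma adjusted p = 0.440). The response of Kif11 differed by -0.20 (-0.42 to 0.01), of Ndc80 by -0.19 (-0.42 to 0.05), of Rrm2 by -0.19 (-0.43 to 0.05) and of Ccnb1 by -0.25 (-0.57 to 0.07), with limma adjusted p of 0.487 to 0.575. So Ndc80, Kif11 and Ttk were called in treated cells only, but their responses in the 2 settings were not shown to differ.

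The 2 vehicle groups were also compared. They differ in time (2 h against 1 h) and in whether the cells received the supernatant of another culture, and these cannot be told apart. Of the 40 genes 1 fell in vehicle supernatant cells and none rose, 2.50% and 0% of the 40, against 5.18% and 9.49% of all genes. The one was Cenpf, which encodes a large kinetochore and nuclear matrix protein. It was at 12.4, 11.6 and 13.9 FPKM in vehicle and at 8.21, 10.4 and 10.5 after vehicle supernatant, without overlap, and fell by 0.36 (SE 0.095, limma adjusted p = 0.0298). Without vehicle replicate 2 the count was 4, all lower (Cenpe, Cenpf, Mki67 and Top2a), and without vehicle replicate 1, vehicle replicate 3 or vehicle supernatant replicate 1 it was 0. It was 4 or 5 under 3 other scalings, with all calls lower, and 0 after rescaling to one total, without a filter on low values and in a fit of only the 2 groups. Over all genes the calls were 1129 higher and 617 lower, and 628 and 731 without vehicle replicate 2.

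The median difference of the 40 was -0.08, while that of all genes was 0.03, and 28 of the 40 differences were negative. After rescaling to one total these medians were 0.04 and 0.14, so the sign of the first turned. Both times the median of the 40 lay below that of all genes. Vehicle replicate 2 had a summed FPKM of 352370, against 265160 to 282134 in the other libraries of the oligomycin A experiment. At an unadjusted p below 0.05 there were 7 of the 40 (17.5%), against 30% of all genes. Groups did not overlap for 10 of the 40 (25.0%) with the vehicle supernatant lower and for none with it higher, against 12.6% and 21.6% of all genes. Cenpe was at 26.7, 23.3 and 29.9 FPKM in vehicle and 19.4, 22.7 and 23.1 after vehicle supernatant (difference -0.28, limma adjusted p = 0.0599). Rrm2 was at 87.5, 83.6 and 92.6 FPKM against 69.8, 79.7 and 75.7 (difference -0.23, limma adjusted p = 0.0739). Kif20a, a central spindle motor, was at 22.2 ± 0.399 and 18.9 ± 2.34 FPKM (limma adjusted p = 0.0944), and Mki67 at 107.8 ± 14.4 and 90.6 ± 9.56 (difference -0.25, limma adjusted p = 0.125). The 5 replication genes Mcm2, Mcm3, Mcm5, Mcm6 and Pcna lay between 0.01 and 0.09, and all 7 kinetochore and passenger genes between -0.36 and -0.02. Markers of other lists moved in the same comparison. Higher were 2 of 3 osteocyte markers tested (Pdpn and Phex), 3 of 4 fibroblast markers (Dcn, Prrx1 and Pdgfra) and 1 of 2 osteoclast markers (Ctsk). So were 1 of 4 osteoblast markers (Spp1) and 1 of 2 granulocyte markers (S100a8). The 1 macrophage marker tested, Cd68, was lower (1.62 FPKM in vehicle and 0.520 after vehicle supernatant, difference -0.78, limma adjusted p = 0.0018). The 8 osteocyte markers summed to 219.1 to 256.7 FPKM in vehicle and 309.1 to 329.9 after vehicle supernatant, with Sost at 0 in both, and the 6 fibroblast markers to 503.7 to 526.6 and 537.8 to 628.2. Their part in the differences of the 40 genes was not tested.

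**Figure D4:**
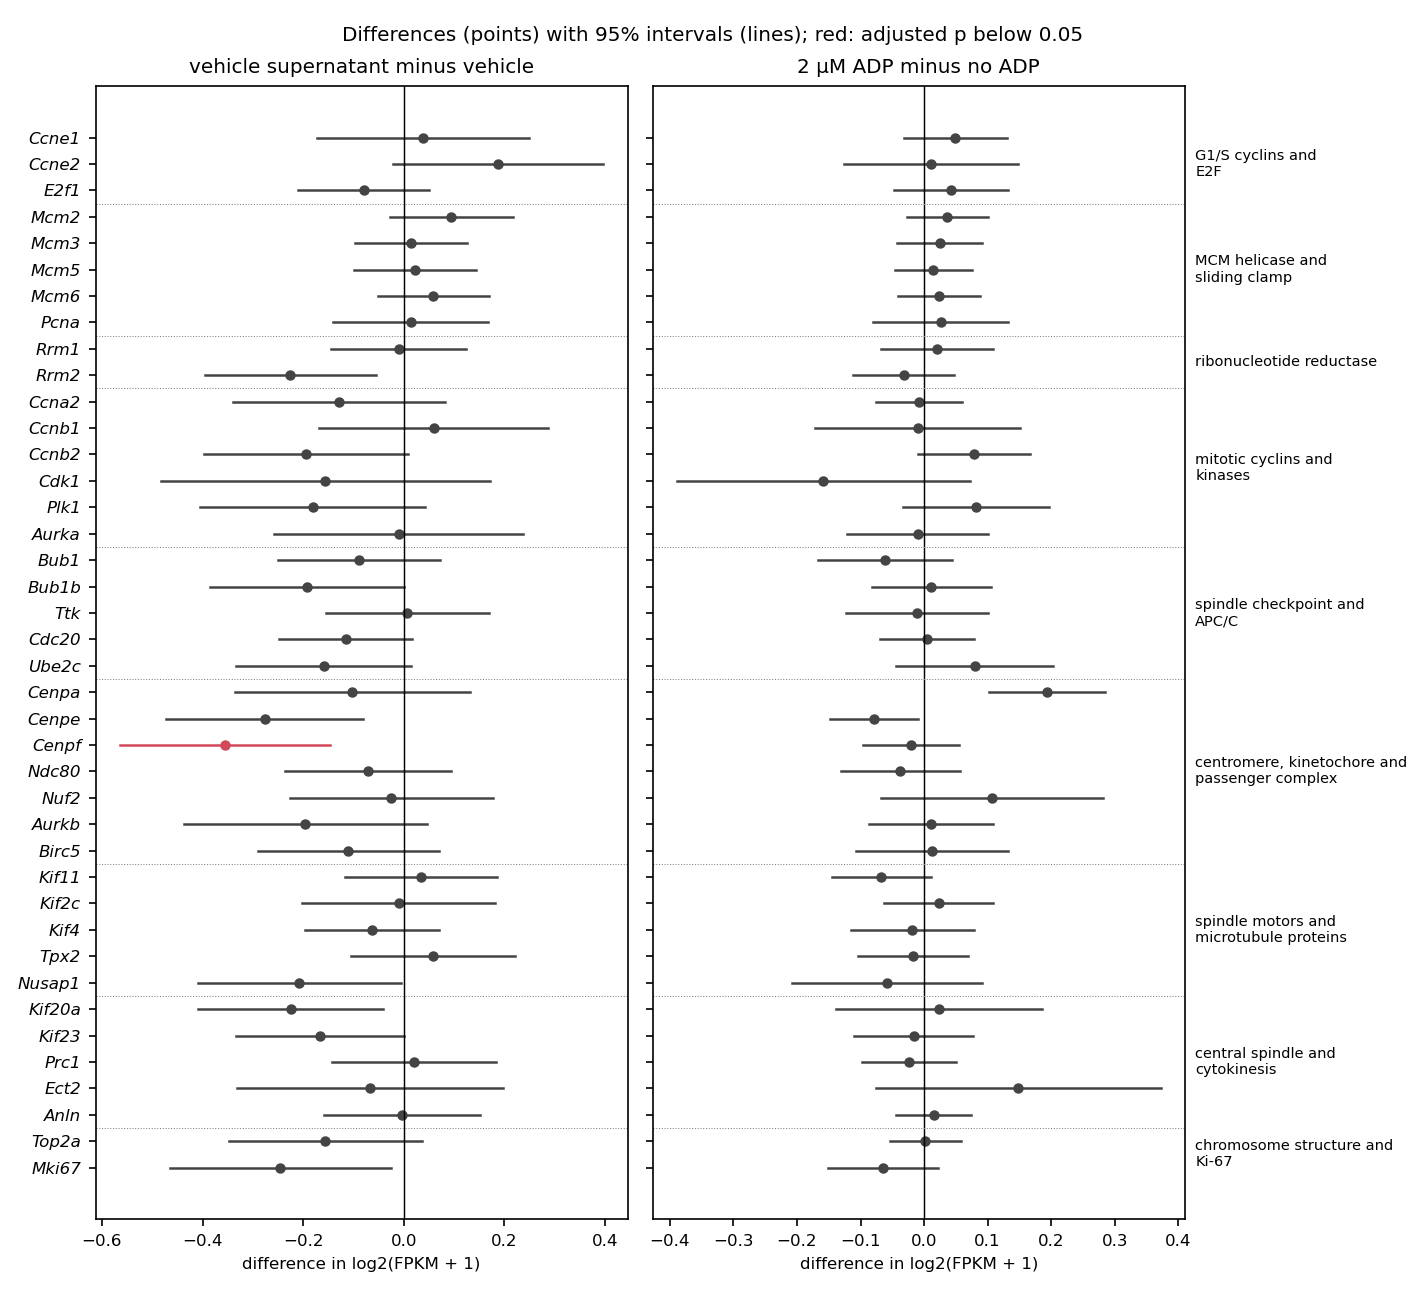
Difference in log2(FPKM + 1) of each of the 40 genes, with 95% confidence intervals, for vehicle supernatant minus vehicle (left) and 2 µM ADP minus no ADP (right). Red marks an adjusted p below 0.05, which only Cenpf on the left reached, with a difference of -0.36.

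The ratio of Rrm2 to Rrm1, a pair picked after the levels were seen, does not depend on library scaling and is given without a test. It was 3.69, 3.79 and 3.78 in vehicle, 4.26, 4.03 and 4.07 in oligomycin A cells, 3.18, 3.34 and 3.17 after vehicle supernatant and 3.07, 2.97 and 3.23 after oligomycin A supernatant. Both supernatant groups lay below both 1 h groups, and oligomycin A cells lay above vehicle. Rrm1 itself had group means of 23.1 to 23.4 FPKM in the 4 groups. Rrm2 was called neither in oligomycin A cells nor in the vehicle comparison. Of the other cell cycle genes, 9 were higher (5.29%) and 6 lower (3.53%) in vehicle supernatant cells, against 9.49% and 5.18% of all genes. Among them Cdca5, which encodes the cohesin regulator sororin, fell by 0.45 (limma adjusted p = 0.001), Wee1, the inhibitory kinase of CDK1, rose by 0.38 (0.00642), the origin recognition gene Orc2 rose by 0.43 (0.00124), Slbp fell by 0.34 (0.0135), Myc fell by 0.78 (0.00193) and E2f4 rose by 0.25 (0.00672). No CDK inhibitor of the 7 tested was called; Cdkn1a, Cdkn1b and Cdkn2a had limma adjusted p of 0.339, 0.557 and 0.914, and Ccnd1 0.132.

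With 2 µM ADP, a ligand of purinergic P2Y receptors, none of the 40 genes was called, against 0.0603% of all 11604 genes tested. At an unadjusted p below 0.05 there were 2 (5.00%), near the 5.84% of all genes. The median difference was 0.01, against 0.00 for all genes, and the 40 differences lay between -0.16 and 0.19. Cenpa, the histone variant that marks centromeres, was at 7.81, 8.33 and 7.95 FPKM without ADP and at 9.47, 9.09 and 9.42 with ADP. Its groups did not overlap, and its difference was 0.19 (SE 0.038, limma adjusted p = 0.584). Cenpe was at 31.7 ± 0.778 and 30.0 ± 0.404 FPKM (difference -0.08, limma adjusted p = 0.842).

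The next in this comparison were Ccnb2 (38.7 ± 0.601 and 41.0 ± 1.73 FPKM), Kif11 (20.3 ± 0.430 and 19.4 ± 0.507) and Mki67 (131.5 ± 4.14 and 125.7 ± 3.95), with limma adjusted p of 0.842 to 0.855. Groups did not overlap for 2 of the 40 with ADP higher (Cenpa and Ccnb2) and 2 with it lower (Cenpe and Mki67), 5.00% each, against 5.33% and 5.27% of all genes. Ccnb1 (group means of 26.9 and 26.6 FPKM), Top2a (101.4 ± 1.74 and 101.6 ± 0.274), Pcna (115.4 ± 1.83 and 117.7 ± 6.63) and Mcm5 (80.4 ± 1.15 and 81.2 ± 1.34) had overlapping groups. The 95% interval of Mcm5 was -0.05 to 0.08 and that of Top2a -0.05 to 0.06.

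None of the other cell cycle genes was called with ADP. The one nearest to a call was Cdkn2d, which encodes the CDK4 and CDK6 inhibitor p19INK4d, at 8.93, 9.03 and 7.71 FPKM without ADP and at 5.16, 5.38 and 5.11 with it (difference -0.62, limma adjusted p = 0.0695). Cdkn1a was at 24.2 ± 0.803 and 24.2 ± 1.05 FPKM, Cdkn1b at 11.9 ± 2.28 and 10.2 ± 1.45, Cdkn2a at 101.9 ± 5.00 and 97.8 ± 2.51 and Ccnd1 at 83.9 ± 0.758 and 86.7 ± 1.95, with limma adjusted p of 0.862 to 0.997.

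Young bone fragments were compared by the medium they received. Of the 40 genes 26 had a mean of at least 1 FPKM and were tested. None was called, while 0.0243% of all 16438 genes were. None had an unadjusted p below 0.05, against 2.24% of all genes. Standard errors were far larger here than in MLO-Y4, as given below. The lack of calls therefore does not show that these genes were unchanged. Of the 26 differences 25 were positive, with a median of 0.41, but the median of all genes was 0.45. Groups did not overlap for 2 of the 26 with medium transfer higher (Mki67 and Ccnb1), or 7.69%, and for none with it lower, against 3.49% and 0.596% of all genes. Mki67 was at 0.917, 1.32 and 1.24 FPKM in control and at 2.56, 2.38 and 1.62 in medium transfer (difference 0.55, limma adjusted p = 0.900). Ccnb1 was at 0.699, 0.358 and 0.788 FPKM against 1.75, 2.15 and 0.807 (difference 0.64, limma adjusted p = 0.900).

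The 5 genes of smallest p in young bone were Mcm3, Ccnb2, Aurka, Plk1 and Ube2c, each with a limma adjusted p of 0.900. Mcm3, a helicase subunit, was at 1.46, 1.19 and 2.16 FPKM in control and at 3.8, 10.1 and 1.5 in medium transfer (difference 0.99, SE 0.638, 95% interval -0.26 to 2.24). That interval holds both no difference and a difference of 1. Ccnb2 was at 1.53, 1.99 and 3.96 against 6.08, 6.29 and 2.99 (difference 0.82, SE 0.669). Aurka, a spindle pole kinase, was at 0.905, 0.374 and 0.968 against 2.21, 3.39 and 0.721. For each of these genes medium transfer replicates 1 and 2 were high and replicate 3 lay within the controls. Plk1, the polo kinase of mitotic entry, had group means of 1.07 ± 0.774 and 2.39 ± 1.53 FPKM, and Ube2c 2.66 ± 0.712 and 5.49 ± 3.66.

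The libraries also differed in satellite-like share. The median FPKM of the 40 genes was 0.911, 0.863 and 1.14 in control and 2.25, 2.15 and 0.681 in medium transfer, whose satellite-like shares were 66.1%, 5.80% and 89.9%. After rescaling to one total without satellite-like, ribosomal RNA-like and 7S genes, those medians were 1.32, 1.51 and 1.33 in control and 1.88, 0.994 and 1.32 in medium transfer, and the median difference was -0.08. Without medium transfer replicate 2 the median difference was 0.27, and without replicate 3 it was 0.79. As deposited, without that rescaling, the summed erythroid markers were at 3842 to 8065 FPKM in control and 10514 to 20886 in medium transfer. The B lineage sums (22.6 to 31.9 and 37.7 to 86.4) and adipocyte sums (3.75 to 5.40 and 11.5 to 95.9) were apart too. The sums of all other marker lists overlapped, such as those of the granulocyte list (308 to 546 and 388 to 1468). Whether the erythroid, B lineage and adipocyte sums stay apart after the rescaling was not examined. The adipocyte marker Cfd was called higher (difference 3.61, limma adjusted p = 0.000256), though its groups overlapped. The part of the satellite-like share or of these markers in the levels was not tested.

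**Figure D5:**
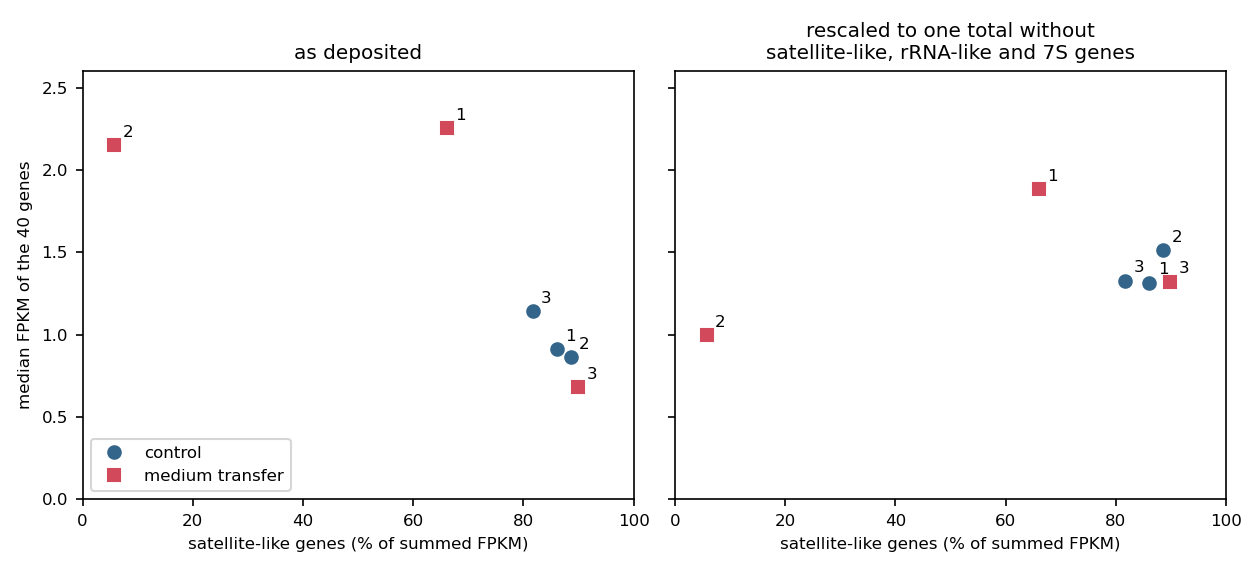
Median FPKM of the 40 genes in each young bone library against the share of summed FPKM in satellite-like genes, as deposited (left) and rescaled to one total without satellite-like, ribosomal RNA-like and 7S genes (right); numbers are replicates. As deposited, medium transfer replicates 1 and 2 stand above the controls at 2.25 and 2.15 FPKM; after rescaling they are at 1.88 and 0.994.

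In bone the brake genes had levels of their own. Cdkn1a was at 15, 36.0 and 13.2 FPKM in old bone, 46.5, 28.6 and 63.8 in young control and 79.8, 176.1 and 28.2 in medium transfer bone (limma adjusted p = 0.900). Cdkn2a was listed at 0 in all 3 old bone libraries and at 1.09 ± 0.415 and 1.25 ± 0.485 FPKM in the young bone groups (limma adjusted p = 0.965). Cdkn2d was at 96.9, 141.3 and 115.0 FPKM in old bone and at 8.27 ± 2.37 and 8.22 ± 2.35 in young bone. Cdkn1b was at 5.18 ± 2.74 FPKM in old bone and 1.88 ± 0.0991 and 2.80 ± 1.27 in young bone, and Ccnd1 at 2.67 ± 0.276, 5.52 ± 3.28 and 9.0 ± 6.09. None of the other cell cycle genes tested in young bone, 123 in all, was called.

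In the annotation of build GRCm38 (GENCODE M21), the genes called here are protein coding. Ndc80 lies on chromosome 17 from 71496100 to 71526857, Kif11 on chromosome 19 from 37376403 to 37421859, Ttk on chromosome 9 from 83834689 to 83872389 and Cenpf on chromosome 1 from 189640606 to 189688086. Exons of 10 of the 40 overlap those of another gene, among them Ccne2 with Ints8, Ccna2 with Exosc9, Kif4 with Pdzd11 and Prc1 with Rccd1 on the opposite strand. The sources used here do not give whether reads were counted by strand, so the levels of these 10 are less certain. The exons of Ndc80, Kif11, Ttk and Cenpf overlap no other gene.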

How the data were processed

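RNA-seq libraries of MLO-Y4 cells and mouse bone were analysed from 4 tables of FPKM values per gene, as the authors deposited them. HTSeq and build mm10 are named in the submitters' processing notes; strand and version are not given in the sources used here. Groups come from the labels, and all 27 value columns match 1 sample each. The 40 genes, the role groups and the other lists were chosen with earlier results of these data known.

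Differences were tested with limma 3.58.1 (R 4.3.3) on log2(FPKM + 1), with a trended prior, over genes averaging 1 FPKM or more across the fitted libraries, and Benjamini-Hochberg adjustment over all of them at 0.05. One fit held the 4 oligomycin A groups. Changes of low genes are understated on this scale. Other summaries used Python 3.11.15. Named were all called genes or the 5 of smallest p, and the highest and lowest of each role.

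Only 44.4% to 48.6% of low MLO-Y4 values were whole fragments within 0.1 (evenly spread values give 20%), and 23.3% to 30.1% in bone, so no counts were recovered and the depth is taken as unknown. The estimate behind these shares was set after its values were seen. Alternatives were pseudocounts of 0.1 and 0.5, filters, 4 scalings, the variance trend, a replicate block, a 2-group fit and left-out libraries. Of 55335 gene IDs, 55154 matched GENCODE M21.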

Additional observations from a re-analysis of the deposited data

How the results depend on the processing

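In oligomycin A cells 3 of the 40 genes were called, and the count was 0 without a filter on low values, 5 after median-of-ratios scaling, 1 after rescaling to one total, 5 after rescaling without satellite-like, ribosomal RNA-like and 7S genes, 5 after quantile normalisation, 1 with only the 2 groups in the fit, and 0 to 2 with a library left out. For vehicle supernatant against vehicle (1 called) these were 0, 5, 0, 4, 5, 0 and 0 to 4. For the recipients (none called) leaving out a library gave 0 to 1. The median over the 40 genes moved to 0.19 in treated cells and to -0.15 for the difference of responses at one total, and to -0.082 in young bone without the 3 kinds of genes. One total moves the median of all genes to 0.12 in treated cells and 0.14 in the vehicle comparison. Medians that changed sign: young bone also by quantiles (-0.03), the vehicle comparison at one total (0.04), ADP at one total and by quantiles (-0.01 each) and without ADP replicate 3 (-0.0055), the recipients without vehicle supernatant replicate 1 (-0.03) or oligomycin A supernatant replicate 3 (-0.01), and the difference of responses in 4 fits with a library left out (up to 0.0175). The treated median and the differences recomputed for Ndc80, Kif11, Ttk, Ccne1, Ccne2, Cenpf and Cenpa kept their sign. The cause of the shifts was not tested. Over all genes, calls in treated cells were 442 higher and 194 lower, 256 and 19 at one total, 761 and 405 by median ratios, and 286 and 366 without vehicle replicate 2. In the vehicle comparison they were 1129 and 617, 484 and 102 at one total, and 1122 and 1084 by quantiles. With a replicate block the counts stayed at 3, 0, 0, 1, 0 and 0, and the limma adjusted p was 0.0203 for Ndc80, 0.0427 for Kif11, 0.0444 for Ttk and 0.0369 for Cenpf. Replicate numbers did not pair the samples: same-number correlations in treated cells were -0.08, 0.01 and -0.04.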
